A study of Mus musculus with 2 samples.

Results

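Amacrine and horizontal precursors are the inhibitory neurons in the making of the embryonic retina. They were gathered here from single-cell RNA-seq of mouse optic cups at E17.5, late in gestation. Cells were kept with more than 500 genes and under 15% of UMIs (unique molecular identifiers, 1 per captured RNA molecule) from mitochondrial genes. Members were then chosen by their own counts. A member had at least 2 of Tfap2a, Tfap2b, Ptf1a and Prdm13 detected, at most 1 of Krt5, Krt14, Krt15, Twist1 and Foxc1, no Pou4f1 or Pou4f2, and fewer than 3 of Crx, Gngt2, Pdc, Gnb3 and Prdm1. Of 36146 kept cells, 1639 were members.

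The study compared embryos homozygous for either of a pair of humanized Myrf alleles. Myrf encodes a membrane-bound transcription factor of the pigment epithelium. In each allele the last exon of the mouse gene was replaced by its human counterpart, so the controls are humanized too. In Myrf humWT/humWT this exon is the normal human sequence and in Myrf humdG/humdG it holds the frameshift found in families with nanophthalmos, an abnormally small eye. There was 1 library per genotype, so no test was possible between genotypes. Intervals below are exact 95% intervals that cover counting error only, and embryo, dissection and library cannot be told apart from genotype. Each library pooled 3 eye cups per the labels, which state that the cornea was removed. The study's methods instead give 3 mice per genotype with both eyes used and the cornea left on. The protocol in the labels also names mice with a conditional Myrf deletion, which are not among these groups.

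Amacrine and horizontal cells arise from the same pool of retinal progenitors that makes ganglion cells and photoreceptors. Foxn4 and Rorb act in the progenitor, Ptf1a (a bHLH factor) then commits the cell to an inhibitory fate, and Prdm13 acts downstream of Ptf1a in amacrine subtypes. The AP-2 factors Tfap2a and Tfap2b follow and stay on as the neurons differentiate, while Onecut and Lhx1 proteins direct horizontal cells. Most amacrine cells release GABA or glycine.

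Ptf1a works in a complex with Rbpj, whose core recognition sequence is TGGGAA. The 250 bases before the transcription start of the 4 gate genes were searched for TGGGAA on both strands. These are RefSeq promoters of build GRCm38.p6, and the first listed start was taken for each gene. The stretches around each match are shown because these genes chose the cells. Capitals mark the match, read along the strand of the gene.
Ptf1a, chr2:19445482-19445511, plus strand, 169 bases before the start: tgccgcactggcTGGGAActgaggacagcg
Prdm13, chr4:21685976-21686005, minus strand, 30 bases before the start: gatttttaggaaTGGGAAggtcgcctggac
Prdm13, chr4:21686167-21686196, minus strand, 221 bases before the start, reverse complement: gtagtcacttatTTCCCAaaactggtttgt
Tfap2a, chr13:40734921-40734945, minus strand, 13 bases before the start: aaaggagaatctTGGGAAaactgga
The Tfap2a window belongs to a start inside the gene body, since the annotated gene reaches chr13:40738376 on its 5′ side. Tfap2b had 0 matches in its window. Of 32851 promoter windows of 250 bases, 7094 (21.59%) held the motif, so the matches are a description of these sequences and no evidence of binding.

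The Myrf humWT/humWT library held 17421 barcodes and 129135207 UMIs, and the Myrf humdG/humdG library held 19565 barcodes and 114319529 UMIs. After the filters 17017 and 19129 cells were kept, with a median of 3785 and 2574 UMIs. The members were deeper than that, with a median of 6096 UMIs in the 551 Myrf humWT/humWT members and 5686.5 in the 1088 Myrf humdG/humdG members. The middle 90% of members lay between 2400 and 19802 UMIs in the first library and between 1631 and 18212 in the second. The libraries shared 102 barcodes, of which 0 were members in both. Of the cells with at least 2 gate genes (854 and 1479), the clause on non-retinal genes removed 221 and 180, the Pou4f clause 67 and 157, and the photoreceptor clause 102 and 192, with some cells under more than 1 clause.

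Most members stood near the threshold. Exactly 2 gate genes were detected in 424 and 794 members, 3 in 83 and 222, and all 4 in 44 and 72. Just outside, 2933 and 3817 cells met the other clauses with exactly 1 gate gene. Pax6, a retinal and amacrine regulator, was at 349 and 580 CPM (counts per 1000000 UMIs of the cells pooled) in members with exactly 2 gate genes, against 125 and 292 CPM in cells with 1. In members with 3 gate genes it was at 975 and 1025 CPM. Gad2, an enzyme that makes GABA, was at 30.5, 129.2, 339 and 513 CPM in Myrf humWT/humWT cells with 1, 2, 3 and 4 gate genes, and at 47.8, 136, 260 and 464 CPM in Myrf humdG/humdG cells. Tubb3, a tubulin of new neurons, went from 252 to 1401 CPM between members with 2 and 4 gate genes in the first library and from 392 to 1804 CPM in the second. Col1a1, a collagen of connective tissue, went the other way, from 2639 to 1227 CPM and from 839 to 387 CPM. Members with exactly 2 UMIs of the gate genes together, the fewest the rule allows, numbered 180 (32.7%) and 337 (31.0%), and those with at least 10 numbered 115 (20.9%) and 316 (29.0%). In the first set Tubb3 was at 102 and 163 CPM and in the second at 1085 and 1174 CPM. Both Tubb3 and Gad2 were thus lower in the members nearest the threshold, in each library.

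RNA of other cell types was found in most members. Free RNA and doublets, which could not be removed, cannot be told apart here. Hbb-bs, a red blood cell globin, had a UMI in 100% and 99.6% of members, and Col1a1 in 98.5% and 71.5%. Endothelial cells (at least 3 of Pecam1, Cdh5, Esam and Cldn5), which should lack the gate genes, numbered 402 and 224 at a median of 14122 and 11528 UMIs. In them Tfap2b had a UMI in 21.9% and 32.6% of cells, against 88.9% and 87.1% of members, and Ptf1a in 2.49% and 15.2%, against 39.7% and 49.4%. With 2000 UMIs drawn from each cell, 5 of 402 endothelial cells passed the whole gate in Myrf humWT/humWT (1.24%, interval 0.405 to 2.88) and 3 of 215 in Myrf humdG/humdG (1.40%, interval 0.289 to 4.02). At that depth the gate held 1.65% of all cells in the first library, which is inside the endothelial interval, and 4.34% in the second. In macrophages (at least 3 of C1qa, C1qb, Ptprc and Csf1r) 1 of 137 cells passed in the first library (interval 0.0185 to 4.00) and 0 of 82 in the second (interval 0 to 4.40), and these intervals hold both shares. The share of cells in the gate was thus not separable from either background in the first library, and in the second it lay above the endothelial interval and inside the macrophage one. Genes that the rule did not use were found in these cells too. In the endothelial cells Rorb, a nuclear receptor of the retina, was at 406 CPM in the first library and 2066 CPM in the second, Pax6 at 60.5 and 357 CPM, Gad2 at 15.1 and 82.0 CPM, Onecut2 at 11.5 and 65.2 CPM and Tfap2c at 1.85 and 10.2 CPM. Retinal RNA in cells that should lack it was thus several times higher in the second library, while members stood above it for each of these genes, as given below.

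Cells that passed the gate made up a larger share of the Myrf humdG/humdG library. They were 3.24% of kept cells in Myrf humWT/humWT (interval 2.98 to 3.51) and 5.69% in Myrf humdG/humdG (interval 5.36 to 6.03). At 2000 UMIs per cell, which left out 1731 and 7371 shallower cells, the shares were 1.65% (interval 1.45 to 1.86) and 4.34% (interval 3.98 to 4.72).

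Over the cells of the 4 retinal gates given next, the share was nearly equal. Gates for photoreceptor precursors, ganglion cells and neurogenic progenitors, built so that no cell was in more than 1, held 562, 56 and 961 Myrf humWT/humWT cells and 845, 189 and 2153 Myrf humdG/humdG cells. Members were 25.9% of the cells in these 4 retinal gates in Myrf humWT/humWT (interval 24.02 to 27.78) and 25.5% in Myrf humdG/humdG (interval 24.15 to 26.78). At 2000 UMIs per cell the shares were 25.1% (interval 22.5 to 27.9) and 25.2% (interval 23.3 to 27.2). The 4 gates together held 12.5% of kept cells in the first library and 22.3% in the second. This second denominator was chosen after the data were seen. It left out retinal cells that passed none of the 4 gates, among them progenitors short of the neurogenic gate.

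**Figure D1:**
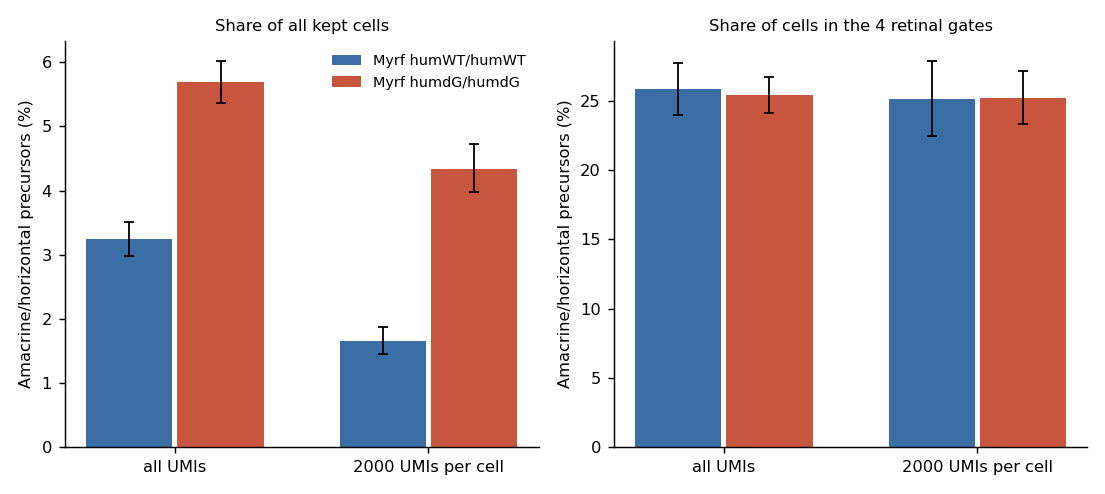
Share of cells (%, bars, with exact 95% intervals as error bars) that passed the gate for amacrine and horizontal precursors in each library, over all kept cells (left) and over the 4 retinal gates (right), with all UMIs or 2000 UMIs per cell. The share of all cells was higher in Myrf humdG/humdG (5.69% against 3.24%), while the share of the cells in the 4 retinal gates was 25.5% against 25.9%.

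The gate genes lie on 4 chromosomes of GRCm38 (GENCODE M21): Tfap2a at chr13:40715302-40738376 on the minus strand, Tfap2b at chr1:19208914-19238576 on the plus strand, Ptf1a at chr2:19445663-19447501 on the plus strand and Prdm13 at chr4:21677480-21685963 on the minus strand. Their levels were part of the rule and are given as a description. Tfap2a was at 157 CPM (721 UMIs) in Myrf humWT/humWT members and 168 CPM (1378 UMIs) in Myrf humdG/humdG members. Tfap2b was at 374 and 508 CPM, Ptf1a at 183 and 265 CPM, and Prdm13 at 103 and 117 CPM. Members held 51.0% and 56.4% of all Ptf1a UMIs of kept cells, 46.8% and 54.3% of those of Prdm13, 36.7% and 45.3% of those of Tfap2a, and 21.3% and 33.8% of those of Tfap2b.

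The combination of gate genes varied from cell to cell. The pair Tfap2a and Tfap2b without Ptf1a or Prdm13 was the commonest, in 252 Myrf humWT/humWT members (45.7%, interval 41.5 to 49.999) and 397 Myrf humdG/humdG members (36.5%, interval 33.6 to 39.4). Tfap2b with Ptf1a came next, in 66 and 174 members. Cells with Ptf1a and Prdm13 but no AP-2 gene numbered 27 and 71. Ptf1a or Prdm13 was detected in 299 members (54.3%, interval 50.001 to 58.5) and 691 members (63.5%, interval 60.6 to 66.4). Median depth was 5984 and 5863 UMIs in these cells and 6471.5 and 5373 UMIs in the AP-2-only cells, so the subsets were of similar depth. By construction every AP-2-only member had exactly 2 gate genes, and all members with 3 or 4 lay in the other subset. The subsets therefore differed in the number of gate genes as well as in their kind. The part of that number in the contrasts below was not tested.

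**Figure D2:**
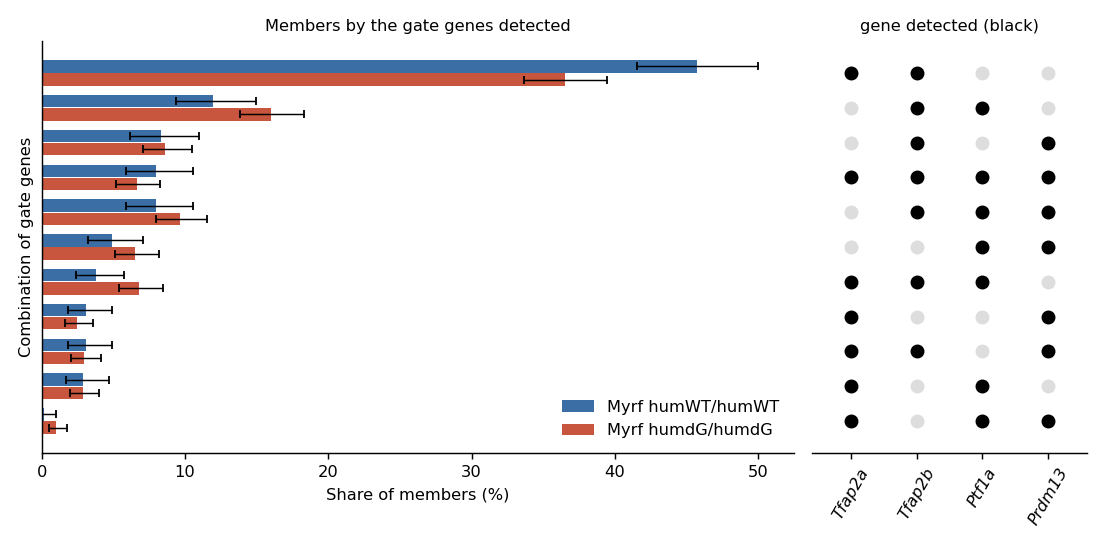
Share of members (%, bars, with exact 95% intervals) by the combination of gate genes detected, for each library, with black dots at the right marking the genes of each combination. AP-2 genes alone formed the largest class in both libraries (45.7% and 36.5%).

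Members with Ptf1a or Prdm13 detected carried more of the neurogenic progenitor genes than AP-2-only members. Of 10 genes of that list 4 were at least 2-fold higher in them in both libraries and 0 at least 2-fold lower, beside 1.23% and 2.22% of 12265 genes with at least 20 UMIs in the members of each library. Of the 6 genes upstream of the fate 3 were at least 2-fold higher and 0 lower. The general neuron genes were split, with 1 of 10 at least 2-fold higher in both libraries and 1 lower. Tubb3, the higher one, was at 837 against 156 CPM in Myrf humWT/humWT and at 1027 against 291 CPM in Myrf humdG/humdG. The log2 ratio of the first subset over the second was 2.42 (interval 2.26 to 2.59) and 1.82 (interval 1.72 to 1.92). Dcx, a microtubule protein of migrating neurons and the lower one, was at 24.4 against 57.3 CPM and at 30.3 against 78.9 CPM, and the growth protein Gap43 and the synaptic protein Snap25 were also lower in both libraries. Neurod4, a bHLH factor of amacrine genesis, was at 136 against 9.19 CPM and at 99.0 against 17.6 CPM. Tfap2c, a further AP-2 factor of amacrine cells, was at 63.9 against 9.19 CPM and at 48.8 against 17.6 CPM. Atoh7, a bHLH factor of progenitors that leave the cell cycle, was at 234 against 23.6 CPM and at 376 against 128 CPM. Gal, the precursor of the neuropeptide galanin, was at 56.6 against 4.81 CPM and at 82.9 against 11.3 CPM. Neurod4, Tfap2c, Atoh7 and Gal were thus higher with Ptf1a or Prdm13 in both libraries. Neurod4 and Tfap2c also differed with the number of gate genes. In members with 2, 3 and 4, Neurod4 was at 31.6, 252 and 122 CPM in Myrf humWT/humWT and 43.9, 120 and 98.0 CPM in Myrf humdG/humdG. Tfap2c was at 14.5, 113 and 91.0 CPM and at 20.5, 64.6 and 78.7 CPM.

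A contrast of similar size in both libraries was that of Krt73 (chr15:101793308-101802346, minus strand), a type II keratin gene. In Myrf humWT/humWT 383 of its 388 UMIs in members, and in Myrf humdG/humdG 546 of 551, fell in cells with Ptf1a or Prdm13. Its log2 ratio was 6.25 (interval 5.02 to 7.88) and 6.11 (interval 4.88 to 7.74). It was detected in 75 and 149 members. In the 75 Myrf humWT/humWT members with Krt73, Tubb3 was at 1636 CPM, and in the 149 Myrf humdG/humdG members at 1532 CPM.

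Genes of differentiated amacrine cells were split between the subsets. Of 10 dendrite and lamination genes 3 were at least 2-fold higher in AP-2-only members in both libraries and 0 lower, beside 2.22% of all genes. The 6 GABA and glycine reception genes were all higher in AP-2-only members in both libraries, with 0 past 2-fold in both. Of all genes 40.9% were higher in AP-2-only members in both libraries. Of 13 amacrine transcription factors 0 were at least 2-fold higher in AP-2-only members and 1, Tfap2c, lower, and of 6 inhibitory transmitter genes 1, Gad1, was higher and 0 were lower. Gad1, which makes GABA, was at 30.6 CPM in AP-2-only members against 9.14 CPM in Ptf1a- or Prdm13-detected members in Myrf humWT/humWT, and at 69.5 against 14.15 CPM in Myrf humdG/humdG. Meis2, a homeobox factor of GABAergic amacrine cells, was at 957 against 599 CPM and at 1474.5 against 438 CPM. Dscam, an adhesion protein that spaces amacrine cells, was at 203 against 67.9 CPM and at 272 against 46.0 CPM. Kcnip1, a potassium-channel partner, was at 128 against 22.6 CPM and at 219 against 36.7 CPM. Fat3, a cadherin that shapes amacrine dendrites, was at 459 against 299 CPM and at 548 against 220 CPM. Bhlhe22, a factor of GABAergic amacrine subtypes, differed in Myrf humdG/humdG (log2 ratio -1.96) and hardly in Myrf humWT/humWT (-0.05), and the difference between the libraries was not tested. Gad2, the other GABA enzyme, went the other way, at 132 against 267 CPM and at 156 against 224 CPM. The glycine transporter Slc6a9 was at 6.56 against 19.1 CPM and at 7.23 against 12.4 CPM, and Barhl2, a homeobox factor of amacrine and ganglion cells, at 21.9 against 51.3 CPM and at 42.8 against 48.2 CPM.

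**Figure D3:**
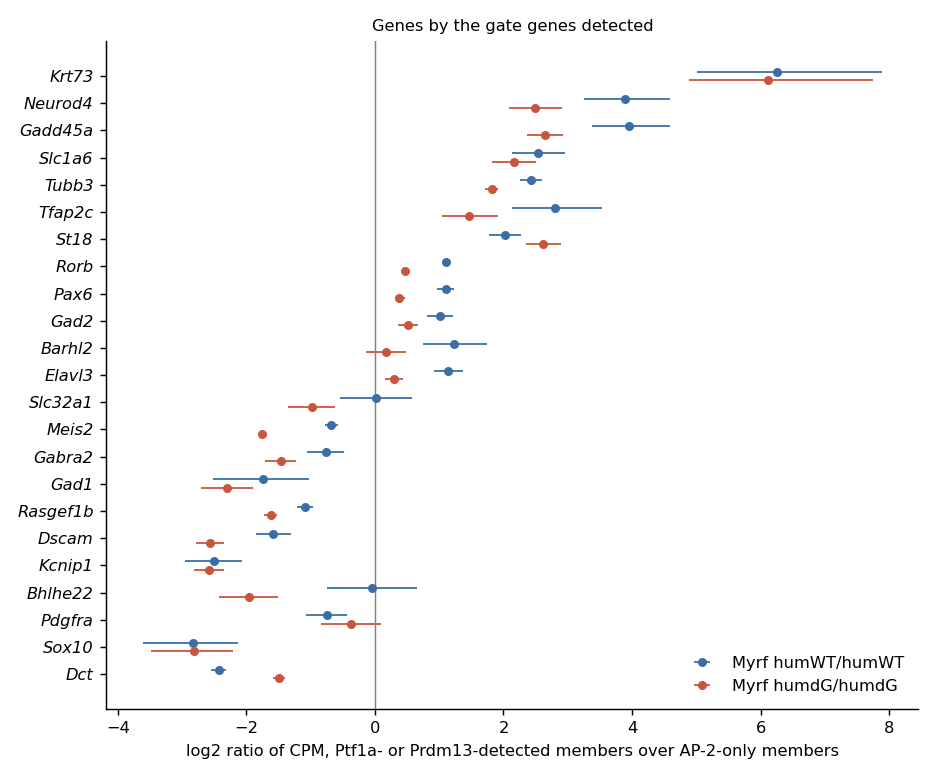
Log2 ratio of CPM between members with Ptf1a or Prdm13 detected and members with AP-2 genes only (points, with exact 95% intervals), for 23 genes in each library. Genes right of 0, such as Krt73 and Tubb3, were higher with Ptf1a or Prdm13; genes left of 0, such as Gad1 and Dct, were higher in AP-2-only members.

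Pigment and neural crest genes were also higher in the AP-2-only members, with 3 of 7 pigment genes and 3 of 3 neural crest and glia genes at least 2-fold higher in both libraries, beside 2.22% of all genes. Dct, a melanin enzyme of pigment cells, was at 1529 against 284 CPM in Myrf humWT/humWT and at 927 against 330 CPM in Myrf humdG/humdG. Members with at least 5 Dct UMIs, 26 and 23 cells, held 93.1% and 93.4% of the Dct UMIs of all members. Col1a1 had this order in Myrf humWT/humWT only (2867 against 1677 CPM) and the reverse in Myrf humdG/humdG (640 against 886 CPM). Sox10, a neural crest factor that the retina lacks, was at 58.6 against 8.26 CPM and at 38.04 against 5.38 CPM. AP-2 genes are also expressed in neural crest derivatives, among them melanocytes and the connective tissue around the eye. At least 3 of Dct, Pmel, Tyr, Tyrp1 and Mitf were detected in 71 members (12.9%) and 49 members (4.50%), and at least 3 of Pdgfra, Prrx1, Twist1 and Foxc1 in 31 members (5.63%) and 15 members (1.38%). The latter 31 cells had Rorb at 484 CPM and Col1a1 at 7623 CPM. The 71 and 49 pigment-gene cells had Rorb at 1447 and 1874 CPM and Gad2 at 142 and 90.4 CPM. Of the pigment-gene cells 38 of 71 and 24 of 49 were AP-2-only, and of the mesenchyme-gene cells 26 of 31 and 7 of 15. Whether these members were cells of other types, doublets or carriers of free RNA was not tested. The label of amacrine and horizontal precursors was therefore not established for every cell of the gate, in either subset.

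The lists of other cell types, over all members, give the extent. Of 10 mesenchyme genes all 10 were detected, led by Col1a1, with a summed level of 6073 and 2216 CPM. All 8 pigment cell genes had at least 1 UMI, led by Dct, with 1708 and 1200 CPM, although Rpe65 had 1 UMI in the first library and 0 in the second. The 5 red blood cell genes, led by Hbb-bs, summed to 7485 and 5985 CPM, the 4 muscle genes, led by Ttn, to 530 and 164 CPM, and the 3 endothelial genes, led by Kdr, to 124 and 108 CPM. The 4 neural crest and glia genes, led by Sox10, summed to 72.9 and 39.4 CPM, and the 5 surface epithelium genes, led by Krt15, to 38.8 and 46.6 CPM. The 4 macrophage genes summed to 59.8 and 4.39 CPM, and 1 cell held 93.1% of the C1qa UMIs of the first library. Of the 11 ganglion cell genes Pou4f1 and Pou4f2 were at 0 by the rule, and Nefm (265 UMIs) led in the first library and Isl1 (935 UMIs) in the second. The 4 bipolar genes and the 3 astrocyte genes had under 20 UMIs each, with Bhlhe23 at 0. The part of these cells in the results below was not tested, beyond the recounts without them.

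Compared with the other retinal gates, members had high levels of inhibitory and amacrine genes. Tfap2c was at 36.6 and 36.7 CPM in members and at most 4.70 CPM in the neurogenic, photoreceptor and ganglion gates of either library. Slc32a1, which loads GABA and glycine into vesicles, was at 24.2 and 31.6 CPM in members and at most 2.61 CPM in the other gates. Slc6a5, the glycine transporter of glycinergic neurons, was at 10.3 and 9.64 CPM in members and at most 0.345 CPM elsewhere. Gad2 was at 200 CPM (interval 187 to 213) and 197 CPM (interval 188 to 207) in members, and between 24.3 and 59.9 CPM in the other gates. Pax6 was at 493 and 743 CPM in members and between 96.5 and 377 CPM in the other gates. Barhl2 was at 36.6 and 46.1 CPM in members and at nearly the same level in the ganglion gate (36.8 and 34.7 CPM).

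The progenitor genes Hes6 and Foxn4 showed the reverse order against the neurogenic gate. Hes6, a neurogenic gene, was at 216 and 367 CPM in members against 918 and 949 CPM in the neurogenic gate, and Foxn4 at 14.0 and 21.5 CPM against 56.5 and 72.4 CPM. Neurod4 was at 72.6 and 67.4 CPM in members and at 310 and 359 CPM in the photoreceptor gate. It was lower than in members in the neurogenic gate (39.4 and 40.8 CPM) and the ganglion gate (6.13 and 32.3 CPM). Tubb3 was at 497 and 742 CPM in members, below the 846 CPM of the ganglion gate in Myrf humWT/humWT and close to its 760 CPM in Myrf humdG/humdG.

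**Figure D4:**
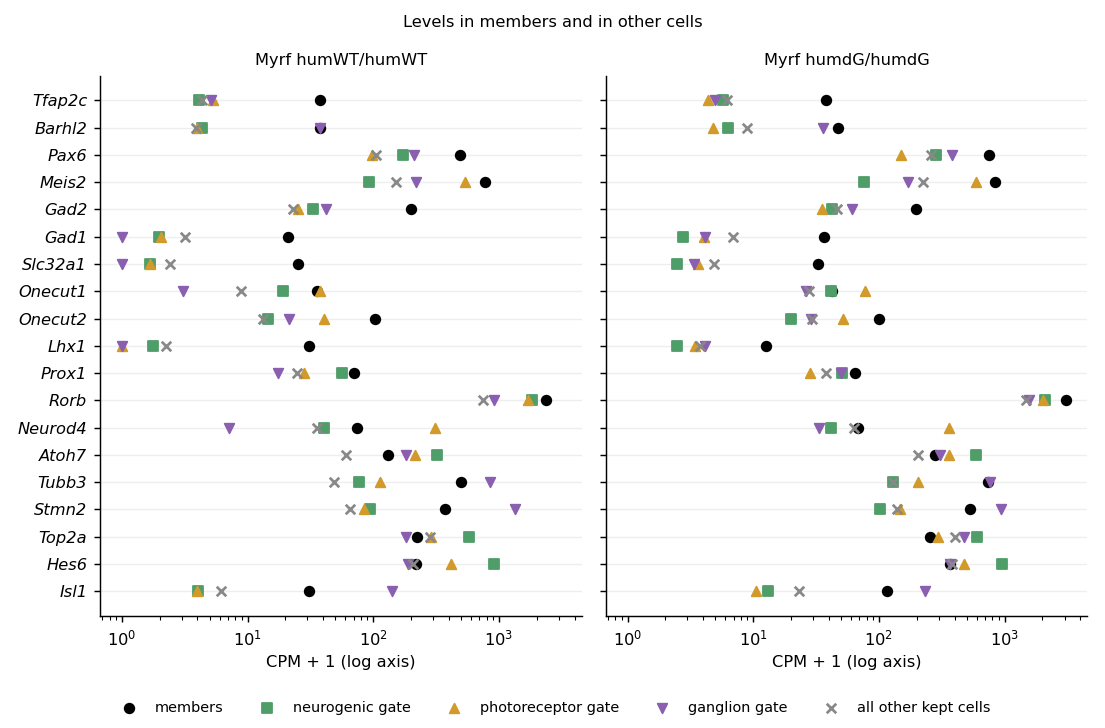
Level (CPM + 1, log axis) of 19 genes in members (black circles), the neurogenic, photoreceptor and ganglion gates and all other kept cells, for each library. Gad2 (200 and 197 CPM in members) and Tfap2c, which the rule did not use, lay right of every other group, while Hes6 was highest in the neurogenic gate (918 and 949 CPM).

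Over all kept cells outside the gate, 273 of 9754 genes with at least 50 UMIs in the members of each library (2.80%) were at least 2-fold higher in members in both libraries, on the scale of CPM + 10. The rule and the genes share the same cells, so this is a description. Of the listed genes with 50 UMIs, 4 of 12 amacrine transcription factors, 4 of 5 inhibitory transmitter genes, 5 of 10 general neuron genes, 2 of 6 GABA and glycine reception genes and 3 of 8 dendrite and lamination genes were among them. So were 2 of 6 ganglion cell genes and 1 of 7 neurogenic progenitor genes. None of the 10 proliferation, 9 retinal progenitor or 3 neuropeptide genes were. Leaving out the gate genes, the 20 genes with the highest lower fold began with Nrxn3, a synaptic adhesion protein, at 2547 CPM in Myrf humWT/humWT members (11.9-fold over outside cells) and 2373 CPM in Myrf humdG/humdG members (5.94-fold). The others were St18, Anks1b, Tubb3, Krt73, Gm26688, Myo16, Tagln3, Nhlh2, Slc1a6, Rasgef1b, Spock1, Nnat, Fam155a, Gm38505, Runx1t1, Celf4, Elavl3, Stmn3 and Kcnip1, with lower folds from 5.71 down to 3.79. Gm26688 (chr13:40727808-40735162, plus strand) lies within Tfap2a on the opposite strand, and reads of the pair may not be independent. St18, a zinc-finger factor, was at 284 CPM in Ptf1a- or Prdm13-detected members against 70.0 CPM in AP-2-only members of Myrf humWT/humWT, and at 243 against 39.6 CPM in Myrf humdG/humdG. Rasgef1b had the opposite order, at 311 against 660 CPM and at 255 against 786 CPM.

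Members with several horizontal cell factors were few. At least 2 of Onecut1, Onecut2, Onecut3 and Lhx1 were detected in 38 Myrf humWT/humWT members (6.90%, interval 4.93 to 9.34) and 112 Myrf humdG/humdG members (10.3%, interval 8.55 to 12.3). These cells were deep, with medians of 11050 and 9399.5 UMIs. Lhx1 was detected in only 15 and 30 members. Onecut1 is not particular to members, at 36.7 and 75.8 CPM in the photoreceptor gate against 34.7 and 41.2 CPM in members. At 2000 UMIs per member, with 7 and 134 shallower members left out, 15 of 544 (2.76%, interval 1.55 to 4.51) and 34 of 954 (3.56%, interval 2.48 to 4.94) passed. At that depth a difference between the libraries was not detectable. Among members with Ptf1a or Prdm13 the share was 5.69% and 9.99% at full depth.

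Genes beyond the 4 that chose it were also higher in the subset. The 10 genes with the highest lower fold over other members were Gm32647, Alk, Cacna2d3, Lhx1os, Gm16551, Tnr, Slit1, Sez6, 9530059O14Rik and Zfp804a. Gm32647, a gene with no established function, was at 468 against 24.1 CPM in Myrf humWT/humWT and at 382 against 12.8 CPM in Myrf humdG/humdG. Alk, a receptor tyrosine kinase, was at 340 against 5.83 CPM and at 125 against 6.45 CPM. Lhx1os is transcribed next to Lhx1, 1 of the genes of the rule, and reads of the pair may not be independent. Gm16551 (chr9:74847983-74860134, plus strand) likewise ends just before Onecut1 (chr9:74861921-74891781, plus strand), a further gene of the rule. Nefl, a neurofilament, was at 442 against 13.4 CPM and at 117 against 19.4 CPM. Prox1, a homeobox factor that horizontal cells keep, was at 278 against 45.2 CPM and at 169 against 47.8 CPM. Calb1, calbindin, rested on 15 and 12 UMIs in the subset. Genes of other retinal cells were higher in it too. Neurog2 was at 143 against 53.9 CPM and at 314 against 124 CPM, and Otx2 at 83.3 against 41.5 CPM and at 134 against 65.0 CPM. Isl1 and Sox2 had the same order. In Myrf humWT/humWT a single cell held 37.3% of the Neurog2 UMIs of the subset and 60.9% of those of Isl1.

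Between genotypes, most genes of the members differed little. Of 14528 genes with at least 20 UMIs in members over both libraries, 373 (2.57%) were at least 2-fold higher in Myrf humdG/humdG and 1212 (8.34%) at least 2-fold lower, with a count of 0 set to 3 UMIs. Over all these genes the log2 ratio, Myrf humdG/humdG divided by Myrf humWT/humWT, had a median of 0.00. The same ratio in kept cells outside the gate is given beside most of the genes below, since the libraries differed there too. A gene with a positive ratio that is smaller than the one outside turns negative when the outside ratio is subtracted. The mix of outside cells differed between the libraries, with the neurogenic gate at 5.65% and 11.3% of kept cells. The part of this in the outside ratios was not tested.

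Among the genes upstream of the fate, 1 of 6 was past 2-fold higher, beside 2.57% of all genes, with a list median of 0.60 against 1.01 outside the gate. Rorb was at 2349 CPM (interval 2305 to 2394) in Myrf humWT/humWT members and 3050 CPM (interval 3012 to 3088) in Myrf humdG/humdG members, a log2 ratio of 0.38 (interval 0.34 to 0.41) against 0.98 outside. In endothelial cells it went from 406 to 2066 CPM, a wider difference than in members, and the part of such background in the ratios of members was not tested. Foxn4 had a log2 ratio of 0.62 (interval 0.20 to 1.06) against 1.31 outside. Atoh7 was at 128.9 and 279.9 CPM, a log2 ratio of 1.12 (interval 0.99 to 1.25) against 1.78 outside, and it turned to -0.66 less the outside ratio and to -0.03 in members with at least 3 gate genes. In the photoreceptor, ganglion and neurogenic gates its ratio was 0.75, 0.75 and 0.88. Each of the 6 genes had a lower ratio in members than over all kept cells outside the gate. The 4 gate genes, whose detection chose the members, had log2 ratios from 0.10 (Tfap2a) to 0.54 (Ptf1a).

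The amacrine transcription factors had a median log2 ratio of 0.00 over the 13 of 15 genes with 20 UMIs, with 0 past 2-fold higher and 2 past 2-fold lower, a share of 2 in 13 beside 8.34% of all genes. Pax6 was at 493 CPM (interval 473 to 514) and 743 CPM (interval 724 to 762), a log2 ratio of 0.59 (interval 0.52 to 0.66) against 1.30 outside. Meis2 had a log2 ratio of 0.11 (interval 0.05 to 0.17), which was -0.45 in members with Ptf1a or Prdm13, and Tfap2c one of 0.00 (interval -0.27 to 0.28). The lower genes were Ebf1, at 204 and 101 CPM (log2 ratio -1.01, interval -1.15 to -0.88), and Ebf2, at 38.2 and 10.98 CPM (log2 ratio -1.80, interval -2.18 to -1.42). Both are factors shared by amacrine cells and mesenchyme, and both were lower outside the gate as well (-0.49 and -1.08). Without the top member of each library Ebf1 was at -0.77, no longer past 2-fold. Neurod6 was at 0 UMIs in both libraries.

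Of the 6 inhibitory transmitter genes 0 were past 2-fold in either direction, beside 2.57% of all genes higher and 8.34% lower, and their median log2 ratio was 0.18. The median was 1.81 in members with Xist and no Y-linked UMI, of which 41 were from Myrf humWT/humWT, and 0.06 in those with Y-linked UMIs but without Xist. Gad2 had a log2 ratio of -0.02 (interval -0.13 to 0.10) against 1.05 outside. Gad1 was at 19.9 and 35.6 CPM, a log2 ratio of 0.84 (interval 0.50 to 1.20) against 1.45 outside. Slc32a1 had 0.38 (interval 0.06 to 0.72) against 1.48 outside. Less the outside ratio the list median was -0.71 and Gad2 was at -1.07. In the photoreceptor, ganglion and neurogenic gates the ratio of Gad2 was 0.49, 0.55 and 0.35, smaller than over all cells outside. The glycine transporters Slc6a5 and Slc6a9 were at 10.3 and 9.64 CPM and at 12.9 and 10.4 CPM, with intervals of the ratio that included 0.

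The levels of the horizontal cell factors were even or lower in Myrf humdG/humdG, but not the share of members with Onecut1. At 2000 UMIs per cell Onecut1 was detected in 18 of 544 members (3.31%) and 76 of 954 (7.97%). Outside the gate its share at that depth was also higher in Myrf humdG/humdG, at 1.68% and 4.43%. Lhx1 was detected in 1.65% and 1.47% of members. Onecut2 was at 102 and 99.52 CPM (log2 ratio -0.03, interval -0.20 to 0.14, against 1.22 outside), and Onecut1 at 34.7 and 41.2 CPM (0.25, interval -0.03 to 0.53, against 1.76 outside). Lhx1 was at 29.9 CPM (137 UMIs, 15 cells) and 11.6 CPM (95 UMIs, 30 cells), a log2 ratio of -1.37 (interval -1.76 to -0.98) against 1.17 outside, with 24.1% and 22.1% of its UMIs in a single cell. Onecut3 was at 10.3 and 5.12 CPM, with a ratio of 1.42 outside. Without the member with the most UMIs in each library the log2 ratio was -1.33 for Lhx1 and -0.80 for Onecut3, the latter no longer past 2-fold. These 2 of the 8 genes on the list were past 2-fold lower, beside 8.34% of all genes, and 0 were past 2-fold higher, beside 2.57%. Outside the gate the list median was 1.20, against -0.27 in members.

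Among the other neuronal lists, 0 of 10 general neuron genes were past 2-fold, with a median log2 ratio of 0.32 against 0.98 outside, so that less the outside ratio the median turned to -0.67. Tubb3 had a ratio of 0.58 (interval 0.51 to 0.65) against 1.43 outside, and Elavl3, an RNA-binding protein of new neurons, one of 0.32 (interval 0.20 to 0.44) against 1.22 outside. In the photoreceptor, ganglion and neurogenic gates the ratios were 0.87, -0.16 and 0.77 for Tubb3 and 0.995, 0.14 and 0.76 for Elavl3. The next counts stand beside the 8.34% of all genes past 2-fold lower. Of 6 GABA and glycine reception and chloride transport genes 1 was past 2-fold lower, Glra2, a glycine receptor subunit, at 17.2 and 8.05 CPM (outside ratio 0.06). Of 10 dendrite and lamination genes 2 were past 2-fold lower, Sdk1 at 147 and 61.0 CPM (outside ratio -0.46) and Dscaml1 at 11.6 and 5.12 CPM (outside ratio 0.85), both adhesion proteins of retinal wiring. Of 5 neuropeptide genes with 20 UMIs, Penk, the enkephalin precursor, was past 2-fold lower at 26.4 and 13.05 CPM (outside ratio 0.38). Without the member with the most UMIs of a gene in each library the log2 ratio was -0.72 for Penk, -0.77 for Dscaml1 and -0.93 for Glra2, no longer past 2-fold, and -1.25 for Sdk1.

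Starburst amacrine genes, the set of cholinergic amacrine cells, had 3 of 7 past 2-fold higher and 1 past 2-fold lower, beside 2.57% and 8.34% of all genes. Isl1, a homeobox factor shared with ganglion cells, was at 29.7 CPM (136 UMIs, 27 cells) and 114.04 CPM (935 UMIs, 135 cells), a log2 ratio of 1.94 (interval 1.68 to 2.21) against 2.10 outside, and less the outside ratio it turned to -0.16. In the photoreceptor, ganglion and neurogenic gates its ratio was 1.71, 0.72 and 2.01. In AP-2-only members Isl1 was at 28.4 and 178 CPM. Sox2 was at 32.7 and 86.6 CPM (log2 ratio 1.40 against 1.15 outside), and Fezf1 rested on 5 and 38 UMIs. Slc5a7, the choline transporter, went the other way, from 22.7 CPM (104 UMIs in 39 cells) to 0.610 CPM (5 UMIs in 5 cells). Of the 39 cells 15 had at least 3 of Pdgfra, Prrx1, Twist1 and Foxc1 and 20 had Shox2, a homeobox gene of mesenchyme. Their Rorb level was 606 CPM and their Col1a1 level 4601 CPM. Chat, the acetylcholine enzyme, was at 16 and 43 UMIs.

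Of the progenitor genes, 7 of 9 retinal and 10 of 10 neurogenic ones had a log2 ratio above 0 in members, beside 7298 of 14528 genes. Fewer were past 2-fold. Of 9 retinal progenitor genes 4 were past 2-fold higher and 0 lower, beside 2.57% of all genes, with a median log2 ratio of 1.00 against 0.85 outside the gate. Ccnd1, a cyclin of progenitors, was at 307 CPM (interval 292 to 324) and 654 CPM (interval 636 to 671), a log2 ratio of 1.09 (interval 1.00 to 1.17) against 0.90 outside. Fgf15 was at 48.9 and 133 CPM, a ratio of 1.44 against 1.85 outside, and Hes1 at 71.8 and 148 CPM, a ratio of 1.05 against 0.85 outside. Sox9, a progenitor and glial factor, went the other way at 126 and 63.4 CPM, a ratio of -0.99 against -0.27 outside, and Sfrp2 was at 73.3 and 54.9 CPM. Of 10 neurogenic progenitor genes 4 were past 2-fold higher, with a list median of 0.86 against 1.05 outside. Neurog2 was at 63.0 and 149 CPM, a ratio of 1.24 against 1.57 outside, and Dll4 at 4.36 and 13.3 CPM, a ratio of 1.61 against 0.68 outside. Less the outside ratio Fgf15, Neurog2 and Dll3 (1.05 against 1.14 outside) thus turned below 0. Of 10 genes of the photoreceptor list with 20 UMIs, 1 was past 2-fold higher, Crx, at 21 and 92 UMIs. Crx itself was among the genes of the rule. Free RNA of these genes could not be counted apart from that of the cells, and its part was not tested.

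The 10 proliferation genes had log2 ratios from -0.02 to 0.32, with a median of 0.12 against 0.43 outside. None was past 2-fold, beside 2.57% of all genes higher and 8.34% lower, so with 10 genes this count is near the background. Top2a, a mitotic topoisomerase, was at 223 and 252 CPM in members, against 581 and 602 CPM in the neurogenic gate. With 2000 UMIs per cell, at least 3 of the 10 genes were detected in 12.3% of members (interval 9.67 to 15.4) in Myrf humWT/humWT and 18.3% (interval 15.9 to 20.9) in Myrf humdG/humdG. The shares were 43.4% and 50.3% in the neurogenic gate and 22.1% and 38.2% in cells outside the members' gate. They were 12.4% and 22.6% in the photoreceptor gate and 11.1% and 35.4% in the ganglion gate. In Myrf humWT/humWT the share of members was thus close to those of these 2 gates. The 5 cell cycle exit genes also had 0 past 2-fold, near the same background, with a median of 0.22 against 0.34 outside, and Cdkn1c was at 585 and 683 CPM.

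**Figure D5:**
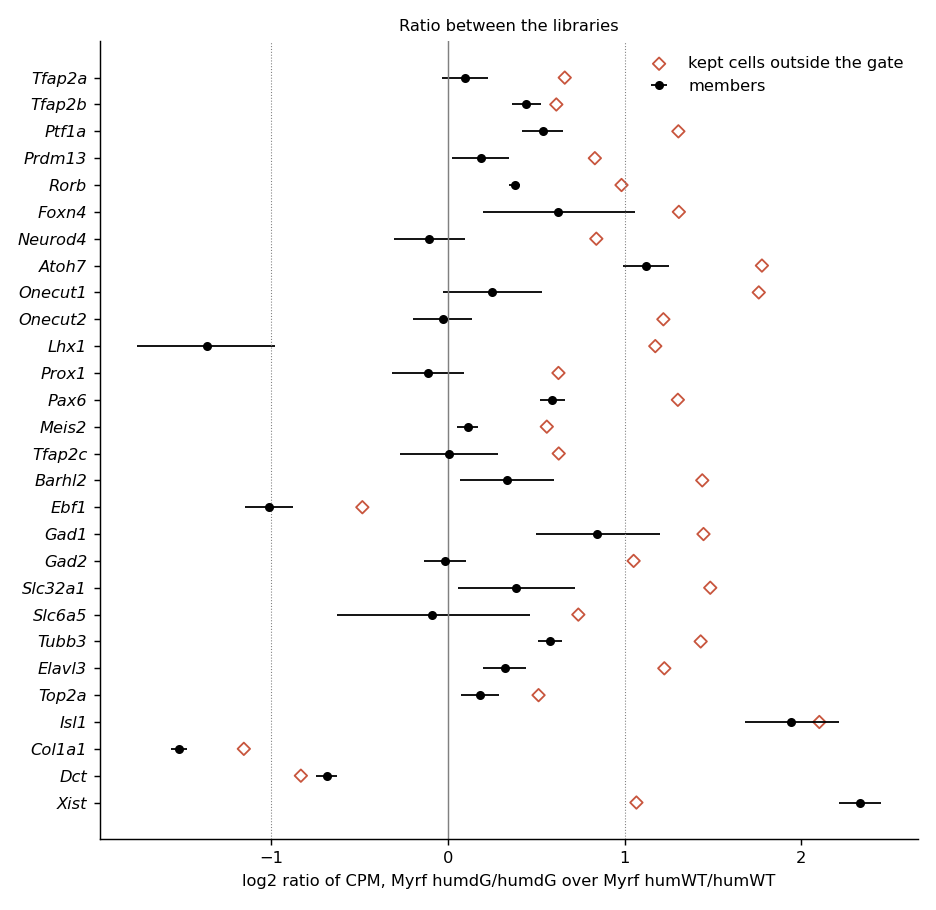
Log2 ratio of CPM, Myrf humdG/humdG over Myrf humWT/humWT, in members (black, with exact 95% intervals) and in kept cells outside the gate (open diamonds), for 28 listed genes. Dotted lines mark 2-fold. The gate genes, at the top, chose the members and are shown as a description. Gad1, Gad2, Slc32a1 and Tubb3 lay left of their diamonds (Gad2, -0.02 against 1.05), Lhx1 was past 2-fold lower and Isl1, Atoh7 and Xist past 2-fold higher.

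The genes with the widest ratios were mainly not neuronal. Among genes with at least 200 UMIs, the 10 highest ratios included 7 histone genes, Hist1h2bl, Hist1h2bn, Hist1h3i, Hist2h2bb, Hist1h3e, Hist1h2bb and Hist1h2ah. Their log2 ratios ran from 2.28 to 3.802 in members and from 1.51 to 3.27 outside the gate. Hist1h3e was at 81.2 and 412 CPM. S100a9 (2 and 296 UMIs) and S100a8 (8 and 249 UMIs), granulocyte genes, had 89.9% and 89.2% of their Myrf humdG/humdG UMIs in a single cell. Xist, the RNA of the inactive X chromosome, was at 136 and 685 CPM. Members with Xist but none of Ddx3y, Uty, Eif2s3y and Kdm5d numbered 41 (7.44%) and 396 (36.4%), and those with a Y-linked UMI but no Xist 302 (54.8%) and 254 (23.3%). The sex of the embryos in a pool cannot be told apart from genotype over all members. Within the Xist-only members Gad2 had a log2 ratio of 1.24, against -0.16 within the Y-only members.

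The 10 lowest were Pyy, Shox2, Pf4, Serpine3, Wif1, Wnt5a, Alx1, Sema3d, Matn4 and Rerg. Pyy and Pf4 had 73.7% and 96.1% of their Myrf humWT/humWT UMIs in a single cell. The sign of Pyy turned in the subsets of members, to a log2 ratio of 1.46 with Ptf1a or Prdm13 detected (1 and 6 UMIs) and of 0.72 with at least 3 gate genes. Wif1, a Wnt inhibitor, was at 133 and 6.83 CPM, Wnt5a at 105 and 7.81 CPM, and Alx1, a homeobox gene of neural crest mesenchyme, at 58.7 and 4.63 CPM. Their log2 ratios were -4.28, -3.75 and -3.66 in members and -1.40, -1.14 and -1.56 outside the gate. In the photoreceptor, ganglion and neurogenic gates they lay between -3.37 and -1.57, so these genes were lower there too. Without the members that had 3 of Pdgfra, Prrx1, Twist1 and Foxc1, 1119 genes were at least 2-fold lower and 360 higher. In Myrf humWT/humWT 557 of 609 Wif1 UMIs and 249 of 256 Shox2 UMIs lay in AP-2-only members. The mesenchyme list had 8 of 10 genes past 2-fold lower and 0 higher in members, beside 8.34% of all genes, with a median log2 ratio of -1.46 against -0.89 outside the gate. The muscle list had 4 of 4 and the macrophage list 3 of 3 past 2-fold lower, of which C1qb and Csf1r were at -0.68 and 0.15 without the top member of each library, and the neural crest list 1 of 4. Pigment genes had 0 of 7 past 2-fold, as had 4 red blood cell, 3 endothelial and 5 surface epithelium genes. Among 7 ganglion cell genes with 20 UMIs Isl1 was past 2-fold higher and Nefm lower, at 57.8 and 27.4 CPM (log2 ratio -0.90 without the top member of each library). RNA of other cell types in the gate moved with these ratios, and its part beyond these recounts was not tested.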

How the data were processed

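Libraries were 10x Genomics 3′ single-cell libraries of pooled E17.5 eye cups. The authors deposited UMI counts per gene and cell, unnormalized, in filtered matrices; the submitters' processing notes name Cell Ranger 7.1.0, Seurat 4.1.1 and build mm10. The study's methods kept cells with more than 200 genes, and its cell numbers are below the barcode numbers here. The gate, its genes and the 27 gene lists were chosen with earlier results of these data known. Counts were summed over cells of a group, divided by their total (CPM) and compared with exact Poisson, Clopper-Pearson and conditional binomial intervals (scipy 1.17.1), checked on simulated counts. Thinning drew 2000 UMIs per cell without replacement. Named genes were the listed genes, the 20 highest folds of members over other cells, the 10 highest and lowest genotype ratios with at least 200 UMIs, and the 10 highest folds of the horizontal subset. Scrublet (scanpy 1.11.5) marked 0 cells, so it had not worked and doublets were not removed; removing the 5% highest scores was an alternative. No cell was assigned by clustering. A few items withheld from this text are not reported here.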

Additional observations from a re-analysis of the deposited data

How the results depend on the processing

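Filters of more than 200 genes or under 10% mitochondrial UMIs and removal of the 5% highest Scrublet scores left the shares and the counts of genes past 2-fold close to those reported (shares 3.22% to 3.28% and 5.64% to 5.66%). The share of kept cells in the gate, Myrf humWT/humWT before Myrf humdG/humdG, was 0.746% and 1.54% with at least 3 gate genes, 1.91% and 3.92% with no non-retinal marker, 4.93% and 9.27% in cells with at least 5000 UMIs and 1.65% and 4.34% at 2000 UMIs per cell. In alternatives chosen after seeing the data it was 1.42% and 2.63% with at least 5 gate UMIs, 1.76% and 3.61% with Ptf1a or Prdm13, and 2.82% and 5.43% without members holding 3 of 5 pigment genes. Myrf humdG/humdG was higher in each of these. The horizontal share of members was 10.2% and 17.7% with at least 3 gate genes, 11.455% and 14.2% at 5000 UMIs or more, 11.6% and 16.3% with at least 5 gate UMIs, 32.5% and 42.7% with at least 1 horizontal gene, and 2.76% and 3.56% at 2000 UMIs. Genes at least 2-fold higher or lower numbered 171 and 668 less the outside ratio, 113 and 572 with at least 100 UMIs, and 920 and 4041 with no minimum. With at least 3 gate genes 670 were lower, and in Xist-only members, 41 of them in Myrf humWT/humWT, 2147 were higher. Among ratios past 2-fold in the 36 genes tried under these settings, the sign turned for Atoh7 (-0.034 with 3 gate genes, -0.66 less the outside ratio), Isl1 (-0.16 less the outside ratio), Pyy (0.72 with 3 gate genes, 1.46 with Ptf1a or Prdm13) and S100a8 (-0.66 in Y-only members), and the cause was not tested. Listed genes past 2-fold that also turned less the outside ratio included Fezf1, Fgf15, Neurog2, Dll3 and Actc1. Csf1r turned to 0.15 without the member with the most UMIs in each library, a setting chosen after seeing the data. Smaller ratios turned too, among them 13 of 36 genes tried, counting those above, less the outside ratio and 5 of 36 in members with Ptf1a or Prdm13. Less the outside ratio, the medians of the upstream, amacrine, inhibitory and neuron lists were -0.63, -0.53, -0.71 and -0.67. The mix of cells outside the gate differed between the libraries, as given above. Scaling by the median of ratios or without globin, mitochondrial and ribosomal genes and Cdk8 turned no sign among the genes tried. No paired analysis was possible because there was 1 library per genotype. The horizontal share fell with thinning in both libraries.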
